A study of Mus musculus with 36 samples.

Results

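The transcripts described here are 147 probes of a mouse expression array that were bright in embryonic fibroblasts, dim in pluripotent cells, and dimmer after 1 day of induced reprogramming factors. They were chosen by measured values, the log10 sample brightness in the authors' deposited series matrix. The mean of the untreated primary fibroblasts had to be at least 2.5 and to exceed the mean of the pluripotent cells by at least 0.6, a 3.98-fold difference. In secondary fibroblasts without tamoxifen, the uninduced mean of day 1 had to exceed the induced mean by at least 0.45, a 2.82-fold difference. Of the 25030 probes in the matrix, 2052 met the fibroblast criteria, and the 147 members were 7.16% of these and 0.587% of the matrix. The other 1905 fibroblast probes serve as the comparison below. No source used here pairs a probe with a gene, so the members are given by probe identifier and their functions are not described. For the same reason the labelled cell types could not be checked against marker genes.

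Mouse embryonic fibroblasts (MEFs) are connective tissue cells that make collagen and other matrix proteins, keep an elongated mesenchymal shape and adhere to the dish. Reprogramming with transcription factors turns a small share of them into induced pluripotent stem (iPS) cells, which resemble embryonic stem (ES) cells. A fall of the fibroblast programme is known as one of the earliest changes in such cultures, well before the pluripotency network is stable. Doxycycline switches on inducible transgenes, and ERT2 is a receptor domain that holds a fused protein inactive until tamoxifen binds it. Zscan4 is a protein of early mouse embryos that ES cells switch on briefly.

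RNA was measured on 36 arrays, 2 in each of 18 groups, each array carrying its sample in Cy3 and a mixed RNA reference of mouse cell lines and ES cells in Cy5. Primary MEFs, F1 hybrids from V6.5, either carried the Zscan4ERT2 transgene or were wild, and both were grown in MEF medium, untreated or labelled as treated with tamoxifen, at 200 nM for the Zscan4ERT2 MEFs. Secondary MEFs, made from 1 clone of the KOS-ZERT2 transgenic line on a C57Bl/6 x 129 hybrid background, were grown in ES medium with LIF, a cytokine that maintains ES cells. KOS is the usual short form for the reprogramming factors Klf4, Oct4 and Sox2. The secondary MEFs were sampled on days 1, 3 and 6 without either drug, with tamoxifen at 200 nM, with doxycycline at 1.5 µg/ml, or with both. Cultures with doxycycline are called induced and the others uninduced. The remaining groups were iPS cells of 1 KOS-ZERT2 clone and v6.5 ES cells, both in ES medium with LIF. Every secondary MEF culture carried the same transgenes, and primary and secondary MEFs differed in medium and background as well as in transgenes. Nothing in the labels says whether the 2 arrays of a group stand for separate cultures, and the p-values therefore measure the spread between these arrays, which may be technical. For the wild MEFs labelled as treated, and for replicate 2 of the uninduced day 1 cultures with tamoxifen, the protocol mentions no tamoxifen. Replicate 1 of those day 1 cultures has a protocol worded for ES cells, although its other labels give a MEF. For 4 arrays of the primary MEFs labelled as treated, the position on the slide differs between labels and scanner file, while the slide itself is the same.

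Probes of 60 bases detect the members, and 8 of them are shown because their courses, described below, cover what the set did: steep early falls, falls that deepened, recoveries, a transient rise and responses to tamoxifen. They are written 5′ to 3′ as the scanner files give them, and capitals mark AATAAA, the usual polyadenylation signal.
Z00057154-1: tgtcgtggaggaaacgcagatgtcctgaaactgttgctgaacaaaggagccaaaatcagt
Z00035949-1: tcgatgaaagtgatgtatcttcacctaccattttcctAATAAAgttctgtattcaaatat
Z00007756-1: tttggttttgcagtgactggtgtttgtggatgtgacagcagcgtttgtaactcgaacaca
Z00018218-1: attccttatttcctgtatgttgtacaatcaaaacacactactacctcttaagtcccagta
Z00055263-1: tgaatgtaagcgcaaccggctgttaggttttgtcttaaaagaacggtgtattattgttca
Z00070367-1: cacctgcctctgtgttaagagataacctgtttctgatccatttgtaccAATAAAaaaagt
Z00036206-1: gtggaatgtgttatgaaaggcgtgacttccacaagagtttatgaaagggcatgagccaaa
Z00006007-1: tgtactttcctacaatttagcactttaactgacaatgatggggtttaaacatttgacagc
The signal began at base 38 of Z00035949-1 and at base 49 of Z00070367-1, and the other 6 sequences lacked it.

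Among all members, 21 of 147 probes (14.3%) held AATAAA as written, against 183 of the 1905 other fibroblast probes (9.61%) and 2911 of the 42006 probes on the array (6.93%). On the reverse strand the same search found 7 members (4.76%), 68 other fibroblast probes (3.57%) and 1413 of all probes (3.36%). The pentamer ATTTA, which occurs in AU-rich elements of short-lived messenger RNAs, stood in 14 members (9.52%), 174 other fibroblast probes (9.13%) and 3044 of all probes (7.25%). Its reverse complement stood in 15 (10.2%), 191 (10.0%) and 3380 (8.05%). A probe covers only a short stretch of its transcript, so these are counts of letters in a window and say nothing of the rest of the message. Median GC content was 41.7% for the members, from 26.7% to 61.7%, and 43.3% for both other sets. No pair of members shared a run of 20 bases.

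By the values that selected them, the members were bright fibroblast transcripts. Their median log10 brightness was 3.50 in untreated primary MEFs, with a range of 2.51 to 5.36, and 2.13 in the pluripotent cells. The uninduced day 1 median was 3.41 and the induced one 2.80. The difference between these day 1 groups ran from 0.451 to 1.24, with a median of 0.599, so the median is a 3.97-fold and the highest a 17.2-fold difference. Nearest inside the threshold were Z00025695-1 at 0.451, Z00014716-1 at 0.451 and Z00016436-1 at 0.451, and nearest outside were Z00019895-1 at 0.448, Z00008280-1 at 0.448 and Z00056480-1 at 0.446. Secondary MEFs on day 1 did not copy the primary ones: 39 members were lower there by at least 0.3 before any induction, and 31 were higher by as much. These values describe the selection and test nothing.

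All further levels are log2 ratios of sample to reference from the scanner files, where 0 is the level of the reference and a difference of 1 is a 2-fold change. The members' median was lower in every induced group, from day 1 to day 6, than in any uninduced one. The rule used the untreated primary MEFs, the pluripotent cells and day 1 without tamoxifen, so those medians only describe the selection. The other fibroblast probes are those that missed its day 1 criterion. The members had a median ratio of 1.63 to 1.73 in the 4 primary MEF groups. In uninduced secondary MEFs it was 1.47 without and 1.49 with tamoxifen on day 1. The day 3 medians there were 1.60 without and 1.64 with it, and the day 6 medians 1.87 without and 1.91 with it. In the same order, induced cultures had day 1 medians of -0.21 and -0.17, day 3 medians of -0.55 and -0.63, and day 6 medians of -0.27 and -0.44. The level of iPS cells was -1.93 and that of ES cells -1.86, still below every induced group. Over the same induced groups the other fibroblast probes had medians between 0.45 and 0.63. Uninduced, without and with tamoxifen, their medians were 0.44 and 0.49 on day 1 and 0.80 and 0.80 on day 3. On day 6 they were 1.09 and 1.14. Fewer cells of a type and less RNA per cell cannot be told apart in these bulk samples.

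The members were lowered, not lost, in the sense that most stayed measurable. Each of the 147 was well above background on both arrays of every primary and uninduced group. In induced cultures 142 and 138 were so on day 1, without and with tamoxifen, 138 and 128 on day 3, and 141 and 137 on day 6. In iPS cells 104 were, and in ES cells 113. Z00024594-1 and Z00041372-1 were not well above background on any of the 12 induced arrays. With the day 1 groups of the rule left out, the highest of the 5 induced group means lay below the lowest of the 5 uninduced ones for 126 members (85.7%), with a background of 12.9%, and for 590 of the 1905 other fibroblast probes. The median SD of a member within a group was 0.056, and 5 members had an SD over 0.5 in some group.

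The day 1 fall was tested in the cultures with tamoxifen, whose arrays the rule did not use. These cultures came from the same day and slides as the arrays of the rule, which asks for a large day 1 difference. The part of that in the counts below was not tested. All 147 members were lower in induced than in uninduced cultures at an adjusted p under 0.05 in limma, where 22.0% of the 33099 probes tested were called lower and 843 of the 1905 other fibroblast probes (44.3%) were. In 3 alternatives the call of Z00024594-1 was lost (adjusted p from 0.0926 to 0.57): with the local backgrounds as deposited, and without replicate 1 of either group. With the local backgrounds as deposited, 142 members were called lower. The groups did not overlap for any of the 146 members with all 4 arrays, where 38.5% of all probes were lower without overlap and 54.5% of the other fibroblast probes. Effects ran from -4.22 to -0.42 with a median of -1.86, a 3.63-fold fall, against -0.14 for the other fibroblast probes and -0.01 for all probes. At least 2-fold falls were measured for 138 members, at least 4-fold for 57, at least 8-fold for 6 and at least 16-fold for 2. Without tamoxifen, where the rule itself looked, the same fit called 147 lower with a background of 22.8%, and nothing is read from that count. On each day the induced and uninduced cultures lay on different slides, and for a single day the slide and the drug cannot be told apart.

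Z00035949-1 had the largest measured day 1 fall beside tamoxifen. Its ratios on day 1 were 1.33 and 1.26 in the uninduced cultures with tamoxifen and -2.98 and -2.87 in the induced ones. Those without tamoxifen were 1.31 and 1.16 uninduced and -2.94 and -2.85 induced, and the gap between this last pair of groups was fixed by the rule. Beside tamoxifen the states did not overlap. The effect beside tamoxifen was -4.22 (SE 0.0752, adjusted p = 2.1e-23), or 18.7-fold. Zscan4ERT2 MEFs had 1.94 and 1.87 untreated and 1.72 and 1.90 with tamoxifen, and wild MEFs had 2.02 and 2.17 untreated and 2.12 and 2.06 labelled as treated. The ratios were -4.25 and -4.35 in iPS and -4.41 and -4.46 in ES cells, so after 1 day the induced cultures lay between fibroblasts and pluripotent cells.

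Z00057154-1, the member with the widest day 1 gap in the series matrix, was higher in uninduced day 1 cultures than in primary MEFs. Its uninduced ratios on day 1 were 2.55 and 2.56 without and 2.46 and 2.56 with tamoxifen, against -0.33 and -0.31 in untreated Zscan4ERT2 MEFs and -0.85 and -1.07 in wild MEFs. Induced cultures had -1.58 and -1.55 without and -1.46 and -1.54 with tamoxifen on that day. In iPS cells the ratios were -4.16 and -4.11 and in ES cells -3.93 and -3.70. All 4 uninduced day 1 arrays stood above every primary MEF array, and the 4 induced arrays between the primary MEFs and the pluripotent cells. This order is a description, since the rule used the day 1 arrays without tamoxifen, the untreated primary MEFs and the pluripotent cells. This member was also picked for its day 1 gap, and the part of that in the order was not tested. By day 3 the uninduced arrays with tamoxifen had come down to 0.60 and 0.48 and the induced ones to -3.57 and -3.51. The effect beside tamoxifen was -4.01 (SE 0.0771), -4.08 and -4.44 on days 1, 3 and 6 (adjusted p = 9.8e-23, 1.9e-23 and 3.84e-24). Between days 1 and 6 it changed by -0.44 (adjusted p = 0.00187).

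The other 6 members with the widest gaps in the matrix also fell beside tamoxifen on day 1. Z00029853-1 went from 5.07 and 5.20 uninduced to 1.12 and 1.22 induced, an effect of -3.97 (adjusted p = 3.77e-20), and stood at -0.99 and -1.18 on day 6, where ES cells had -1.04 and -0.99 and iPS cells 0.09 and 0.0081. Z00015883-1 went from 0.89 and 0.86 to -3.11 and -3.03, with no overlap. Z00026869-1 fell from 0.11 and -0.026 to -3.16 and -3.03. The effects on these last members were -3.94 and -3.13. Z00054914-1 had a smaller effect, -2.40, between 0.76 and 0.85 uninduced and -1.66 and -1.53 induced. For the remaining pair the induced level is only a bound, since both day 1 arrays were not well above background. Z00076750-1 was at least 4.51-fold lower (adjusted p = 2.25e-15) and Z00038597-1 at least 2.05-fold lower (adjusted p = 3.15e-08), where the bound is the lower of the measured fold in the ratio and a fold in sample brightness that lets the lowest signal well above background stand for the dim side.

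On days 3 and 6 nearly all members were still below the uninduced cultures. On day 3, 143 of 147 were lower without tamoxifen, with a background of 27.0%, and 142 with it, with a background of 27.7%. On day 6 the counts were 141, with a background of 25.5%, and 142, with a background of 28.0%. Of the other fibroblast probes 56.2%, 59.5%, 61.7% and 64.8% were lower in these comparisons. The members' median effects were -2.17 and -2.23 on day 3 and -2.12 and -2.20 on day 6, or 4.50-, 4.68-, 4.34- and 4.60-fold, and the other fibroblast probes had -0.36, -0.43, -0.50 and -0.58. In all 4 comparisons together 138 members (93.9%) were lower, with a background of 16.8%, and 945 of the other fibroblast probes (49.6%). Higher calls numbered 3 and 2 on day 3, with backgrounds of 31% and 32.9%, and 4 and 4 on day 6, with backgrounds of 28.9% and 31.1%. A further fit took slide as a random block and the doxycycline effect as equal on days 3 and 6. It called 141 members lower in either tamoxifen state, against 142 without the block. Of the 33099 probes tested, the block left 7012 lower without and 7574 with tamoxifen, against 8772 and 9383 when it was not used. Slides differed between days and between induced and uninduced cultures, so this fit cannot tell slides from changes of effect between the days.

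Measured against the distance to the pluripotent cells, the members covered much of the way on the first day and little more afterwards. Beside tamoxifen, the median member had closed 58.5% of the gap between the uninduced cultures and the mean of ES and iPS cells on day 1, 69.7% on day 3 and 64.2% on day 6. The interquartile range was 44.3% to 72.7% on day 1 and 39.8% to 89.7% on day 6, a wider spread among members. For 3 members the uninduced day 1 level was itself at or below the pluripotent mean, so that no gap was left. Their day 1 shares came out negative and are kept in the medians. Among members with a gap left, 11 had an induced level at or below that mean on day 1. On day 3 there were 18, and on day 6 there were 19. Members with no gap left are not in these counts. Without tamoxifen the median shares were 67.0% on day 3 and 56.8% on day 6. These shares are on the log2 scale and rest on the ES and iPS arrays that the rule used, so they are a description. The rule also asks for a large day 1 difference, in cultures from the same day and slides. The part of that in the course of the shares was not tested. They are also limited by dim signals, since 36 members were well above background on neither iPS array and 25 on neither ES array. Over the 96 members well above background on all ES and iPS arrays and all induced arrays with tamoxifen, the medians were 56.5%, 63.6% and 56.8% on days 1, 3 and 6.

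After day 1 the members parted, most to a larger and some to a smaller difference. Each day had slides of its own, so that changes between days and between slides cannot be told apart. Beside tamoxifen the effect of day 3 was below that of day 1 for 83 members, with a background of 17.6%, and above it for 24, with a background of 23.9%. From day 1 to day 6 it fell for 77, with a background of 21.5%, and rose for 31, with a background of 24%. Of the other fibroblast probes 51.6% and 59.0% fell over these spans and 17.6% and 16.5% rose. By both measures 65 members (44.2%) fell, with a background of 12.8%, and so did 44.9% of the other fibroblast probes. By both measures 20 members (13.6%) rose, with a background of 16.1%, and 10.5% of the others. These contrasts rest on day 1 cultures from the same day and slides as the arrays of the rule, which asks for a large day 1 difference. The part of that in the counts was not tested.

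The comparison of day 6 with day 3, over both tamoxifen states, uses no array of the rule and no array of day 1. Here the signed effect rose by day 6 for 59 members (40.1%), with a background of 17.8%, and for 391 of 1905 other fibroblast probes (20.5%). A rise weakens a negative effect, and can also reverse it or enlarge a positive one. The signed effect fell for 47 members (32.0%), with a background of 23.6%, and for 926 of the others (48.6%). The median change was 0.06 for the members, -0.18 for the other fibroblast probes and -0.01 for all probes. On day 3, without and with tamoxifen, median effects were -2.17 and -2.23 for the members, against -0.36 and -0.43 for the other fibroblast probes. The members were chosen for a large day 1 effect, and the part of that in these shares was not tested. By value, the induced cultures were higher on day 6 than on day 3 in 53 of the 59, by a median of 0.57, while the uninduced ones differed by a median of -0.05. Among the 47 the uninduced median was 0.52 and the induced one -0.13. Of the 59, 22 were also above their day 1 effect on day 6 beside tamoxifen by the test, and 17 were below it. These last counts do use day 1 cultures, from the same day and slides as the arrays of the rule. The like counts among other probes were not taken. The count of 47 was 26 with the local backgrounds as deposited.

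The deepest falls took some members below the pluripotent cells. Z00007756-1 had day 1 ratios of 4.33 and 4.37 uninduced and 2.15 and 2.20 induced beside tamoxifen. On day 3 the induced arrays read -2.89 and -2.84, and on day 6 -2.96 and -3.28, while the uninduced ones read 4.33 and 4.22, then 4.26 and 4.23. Without tamoxifen the induced arrays went from day 1 ratios of 2.27 and 2.26 through -2.58 and -2.69 to -2.84 and -3.15. The fall after day 1 thus lay by value almost wholly in the induced cultures, and carried them under the iPS cells, at 0.28 and 0.25, and the ES cells, at 0.70 and 0.74. The effect went from -2.18 to -7.37, a change of -5.19 (SE 0.12, adjusted p = 1.68e-20). Untreated primary MEFs had 3.53 and 3.46 with the transgene and 2.75 and 2.72 wild.

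Z00035949-1 and Z00023853-1 followed a like course. Z00035949-1, which has the AATAAA signal shown above, read -5.91 and -5.80 in induced cultures on day 3 without tamoxifen and -6.06 and -5.96 with it. By day 6 it read -5.16 and -5.20 without and -6.03 and -5.95 with tamoxifen, below all ES and iPS arrays. Uninduced cultures with tamoxifen read 2.96 and 3.09 on day 6, above their day 1 level (adjusted p = 1.18e-15). The day 6 effect beside tamoxifen was -9.02 (adjusted p = 6.83e-30), the widest of any member. Z00023853-1 read 0.23 and 0.30 on day 1 with both drugs, and went through -3.45 and -3.42 to -3.93 and -3.97 by day 6. Uninduced arrays read 2.91 and 3.01, then 1.85 and 1.87, then 2.58 and 2.61, and stayed far above them. That was a change in effect of -3.85 (adjusted p = 2.41e-20), and ES cells stood at -1.66 and -1.62.

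In the last members named for a deepening effect the uninduced side moved. Z00016045-1 rose in uninduced cultures with tamoxifen from 4.03 and 3.79 on day 1 to 6.04 and 6.13 on day 6, which had reached and passed the level of untreated wild MEFs, 5.75 and 5.86. Its induced arrays read 1.56 and 1.64 on day 1, then 1.09 and 0.94 on day 6, and the effect changed by -2.76 (adjusted p = 3.67e-15). Z00024594-1 rose uninduced from -0.49 and -0.59 to 1.88 and 2.51, while the induced arrays were not well above background on any day. Its induced level was at least 1.34-fold lower on day 1 (adjusted p = 0.0133, lost in the 3 alternatives given above), at least 2.92-fold lower on day 3 and at least 9.29-fold lower on day 6.

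Recovery was measured for a smaller number of members. On day 6 beside tamoxifen, 14 members had an effect no more than 0.5 times that of day 1, or a reversed one. That is 9.52%, with a background of 40.7% among all probes called lower on day 1 and 147 of 843 such other fibroblast probes (17.4%). In 22 members (15.0%) the day 6 effect was at least 2 times that of day 1, with a background of 16.8% over the same probes and 42.0% of the 843. The members were chosen for a large day 1 effect and the other probes were not, and the part of that in these shares was not tested. Z00064439-1 is a partial recovery: its induced arrays with tamoxifen had day 1 ratios of -2.76 and -2.67, day 3 ratios of -3.01 and -3.04 and day 6 ratios of -1.95 and -2.10. Uninduced arrays came down towards them, from 0.038 and 0.021, through -0.80 and -0.81, to -1.24 and -0.96, so both sides closed the gap and the groups still did not overlap. The effect went from -2.75 to -0.93, a change of 1.82 (adjusted p = 7.12e-11).

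On day 6, 4 members (2.72%) stood above the uninduced cultures, with backgrounds of 28.9% without and 31.1% with tamoxifen. The same 4 did so in both tamoxifen states, a joint call that was not counted for the other probes. Z00018218-1 read 0.23 and 0.24 on day 1 with both drugs, then 1.59 and 1.58, then 1.29 and 1.21 by day 6. With doxycycline alone it read 0.23 and 0.25, then 1.56 and 1.63, then 1.21 and 1.08. In uninduced cultures it fell meanwhile, from 1.88 and 2.02 through 0.95 and 0.96 to -0.35 and -0.35 with tamoxifen (adjusted p = 1.15e-19 for day 6 against day 1). The order of the groups was thus turned round by day 3 without overlap. Uninduced cultures without tamoxifen took the same course, from 1.93 and 1.88 through 0.86 and 0.82 to -0.28 and -0.43. Induced cultures on day 6 also stood above all primary MEFs, whose highest array read 0.02, and far above ES cells, at -3.38 and -3.49. Beside tamoxifen the effect went from -1.72 through 0.62 to 1.60 over the 3 days, a change of 3.31 (SE 0.084, adjusted p = 8.38e-20).

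Z00055263-1 showed the widest change of effect upwards, 3.68 (SE 0.179, adjusted p = 1.34e-14). Its uninduced arrays with tamoxifen went from day 1 ratios of 0.92 and 0.96 through -0.75 and -0.89 to -2.08 and -1.55 by day 6. The induced ones read -1.81 and -1.67, then -1.33 and -1.56, then -0.87 and -0.76. Untreated primary MEFs stood at -1.74 and -1.97 with the transgene and -2.04 and -2.16 wild, so the uninduced day 1 level was the high one and the day 6 level that of primary MEFs. Pluripotent cells were not well above background. The effect was 1.00 on day 6 beside tamoxifen (adjusted p = 2.17e-07) and 1.1 without it.

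Among the 5 members named for a shrinking effect, Z00074876-1 is the one whose uninduced level moved least. Uninduced arrays with tamoxifen read 1.02 and 0.95 on day 1 and 0.79 and 0.83 on day 6. Induced ones went from -1.05 and -1.02 through 0.27 and 0.20 to 1.36 and 1.23, past the uninduced arrays and into the range of the primary MEF arrays. Its effect went from -2.03 to 0.48 (adjusted p = 1.28e-18 for the change). Z00076241-1 made most of its way earlier, from -2.50 and -2.59 on day 1 to -1.08 and -0.94 on day 3, and stood at -0.82 and -0.91 on day 6. Its uninduced arrays read -0.61 and -0.62, then -1.19 and -1.16, then -1.40 and -1.47. Its effect of 0.57 on day 6 was called (adjusted p = 3.73e-07), while that of day 3, 0.16, was not (adjusted p = 0.0642).

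A further member, Z00070367-1, was above the uninduced cultures on day 3 only, and is described because its values were seen to do so. With both drugs it read -2.20 and -2.17 on day 1, then 0.12 and 0.065 and, on day 6, -0.46 and -0.74, against -0.59 and -0.52, then -1.14 and -1.08, then -0.12 and 0.27 with tamoxifen alone. Without tamoxifen the induced arrays read -2.21 and -2.29, then 0.17 and -0.11, then -0.56 and -0.68, and the uninduced ones -0.59 and -0.74, then -1.10 and -1.14, then -0.24 and -0.18. The states swapped order between days 1 and 3 and swapped back by day 6, with no overlap on any day. The effects beside tamoxifen were -1.63, 1.20 and -0.68 (adjusted p = 7.58e-12, 1.08e-09 and 1.19e-05), and without tamoxifen 1.15 on day 3 and -0.41 on day 6.

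Most members also changed with time in the uninduced cells. With tamoxifen and without doxycycline, 77 members rose from day 1 to day 6, with a background of 27.7%, and 51 fell, with a background of 26.2%. As shares, 52.4% of the members rose and 34.7% fell, beside 72.1% and 13.5% of the 1905 other fibroblast probes. The median change was 0.33 for the members and 0.66 for the other fibroblast probes. The rule favours a high uninduced level on day 1, in sister cultures on the same slides, and its part in these shares was not tested. Of the 31 members whose effect rose from day 1 to day 6, 25 were lower by value on day 6 in the uninduced cultures, with a median change of -0.47 there, and 21 were higher in the induced ones, with a median of 0.43. Of the 77 whose effect fell, the uninduced median change was 0.72 and the induced one -0.27.

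Tamoxifen, given beside doxycycline to activate the Zscan4ERT2 protein, lowered a number of members further. On day 6, 47 of 147 members (32.0%) were lower with both drugs than with doxycycline alone, with a background of 2.43%, against 210 of 1905 other fibroblast probes (11.0%). Higher calls numbered 5, with a background of 6.82%. On day 3, 22 were lower (15.0%, with a background of 2.14%, and 11.4% of the other fibroblast probes), and 2 were higher, with a background of 5.20%. The shifts were small beside those of doxycycline, with medians over all members of -0.08 on day 3 and -0.13 on day 6. The members called lower had medians of -0.36 and -0.40. In the uninduced cultures the same lists had median tamoxifen differences of -0.00085 on day 3 and 0.03 on day 6, and the difference between induced and uninduced cultures was not tested. Both days called 18 of the members lower, which is 81.8% of the day 3 list and 38.3% of the day 6 list. Calls shared by both days were not counted for the other probes, so nothing particular to the members is read from them. The day 3 count ranged from 11 to 17 with 1 array left out, was 14 with the local backgrounds as deposited and 42 with the series matrix values. It was 11 without replicate 1 of the cultures with doxycycline alone and 14 without replicate 1 of those with both drugs. Cultures with and without tamoxifen shared slides, where those with tamoxifen always took the same positions.

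Z00036206-1 was lowered most by tamoxifen. With doxycycline alone it read -0.22 and -0.21 on day 3 and 0.42 and 0.48 on day 6, and with both drugs -0.49 and -0.44, then -0.60 and -0.79. The day 6 arrays with both drugs lay below those with doxycycline alone, without overlap. The difference on day 6 was -1.15 (SE 0.088, adjusted p = 2.41e-09). The day 3 difference, -0.25, did not pass (adjusted p = 0.0962). Uninduced cultures on day 6 read 3.34 and 3.32 without and 3.33 and 3.61 with tamoxifen. In untreated primary MEFs it stood at 2.18 and 2.20 with the transgene and 2.63 and 2.70 wild.

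The next members lowered by tamoxifen had smaller differences. Z00016119-1 read -1.10 and -1.26 with doxycycline alone on day 6 and -2.00 and -2.23 with both drugs, a difference of -0.94 (adjusted p = 6.85e-08). Z00044316-1 read 1.50 and 1.47 with doxycycline alone, against 0.82 and 0.73 with both, and differed on day 3 (-0.46, adjusted p = 0.00218) as well as on day 6 (-0.71, adjusted p = 7.86e-06). For Z00016189-1 the differences were -0.54 on day 3 and -0.67 on day 6 (adjusted p = 0.00323 and 0.000269). On day 6 it read 2.80 and 2.55 with doxycycline alone and 2.16 and 1.84 with both drugs. In all 3 the groups did not overlap on day 6.

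The other direction was taken most clearly by Z00006007-1. It read -0.86 and -0.84 with doxycycline alone and -0.14 and -0.14 with both drugs on day 3. On day 6 the former read -0.52 and -0.65 and the latter 0.30 and 0.17. Tamoxifen thus raised it by 0.71 and 0.82 (SE 0.0557, adjusted p = 8.29e-09 and 2.87e-10). It stayed below the uninduced cultures, which read 3.01 and 3.02 without and 3.07 and 3.21 with tamoxifen on day 6. Z00052772-1, at -3.61 and -3.70 with doxycycline alone and -2.76 and -3.43 with both drugs on day 6, differed by 0.56 (adjusted p = 0.00763), and 1 of its arrays with both drugs lay near those without tamoxifen. That call was lost under 5 alternatives, with adjusted p from 0.0617 to 0.36.

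Among the primary MEFs the median differences were small and single members differed more. Zscan4ERT2 minus wild MEFs, both untreated, gave a median of 0.11 with a range of -1.12 to 1.07, and 3 members differed by over 1. Tamoxifen differences had a median of 0.04 in the Zscan4ERT2 MEFs, with a range of -0.82 to 0.88, and of 0.01 in the wild MEFs, with a range of -0.32 to 0.61. Secondary MEFs were less alike to them: on day 6, uninduced with tamoxifen, the difference from the mean of the primary MEFs labelled with tamoxifen ranged from -4.05 to 2.68 around a median of 0.20. In the pluripotent cells the median difference between iPS and ES cells was -0.01, with a range of -0.87 to 2.09, and 5 members differed by over 1. These groups lay on different slides and were compared by value only.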

How the data were processed

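The deposited files were the scanner output of each array and a series matrix of log10 values. Agilent Feature Extraction 9.5.1.1 measured the spots, per the file headers, and the mean spot intensity and median local background intensity in both channels were used as deposited, not normalized. The matrix's deposited log10 values correlated at 0.977 to 0.994 with log10 of the scanner's sample signal and had array medians of 2.37 to 2.46, and were taken as the log10 brightness of the sample. How the authors scaled or centred them is not given in the sources used here. They served to choose the members and as an alternative. The log10 ratio that Feature Extraction deposited, of red over green, was another alternative, with its sign turned.

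The members, and the lists below, were chosen with earlier results of these data known. Background was corrected with normexp (offset 50) after outlying local backgrounds, as marked by Feature Extraction (1.22% in the sample and 3.77% in the reference channel) were replaced by the array's median, and log2 ratios were normalized by loess within arrays. The offset shrinks the ratios of dim probes. Non-uniform spots were left out, which removed 1 array value from each of 2 members. A filter kept the 33099 of 42006 probes, with all 147 members, that both arrays of some group showed well above background. No member was saturated. On an array 54.9% to 77.1% of probes were well above background. Precision is limited by the number of arrays.

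Limma 3.58.1 in R 4.3.3 (lmFit with 18 group means over 36 arrays, contrasts and eBayes; 18 residual and 5.05 prior degrees of freedom) gave two-sided tests, adjusted by Benjamini-Hochberg over all probes of a contrast and called at 0.05. SEs are on the log2 scale. A bound written as at least N-fold sets the bright group's mean sample brightness over the lowest signal well above background on the dim arrays, or gives the measured fold of the ratio where that is lower. The fit was tested on simulated data for doxycycline on day 1 beside tamoxifen, with 33097 probes. It recovered 83 of the 100 given a change of 0.5 and 100 of the 100 given a change of 1, with 3 false calls. In the measured contrast 22.0% of probes were called lower, a far larger share than was changed here. The simulated counts may therefore not hold for it.

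Named members are the 8 with the widest day 1 gap in the matrix, the 5 with the largest rise and the 5 with the largest fall of the doxycycline effect from day 1 to 6 among those called, the 4 lowered and 2 raised most by tamoxifen averaged over days 3 and 6 among those called on either day, and the 3 on either side of the threshold. Z00070367-1 and Z00041372-1 were named after their values were seen. Lists of fibroblast, pluripotency and other genes, and cell type markers, could not be joined to the probes and were not used. Same-numbered arrays showed no consistent pairing (correlations of their deviations between groups from -0.628 to 0.529).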

Additional observations from a re-analysis of the deposited data

Results flagged for a closer look

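For 10 members the doxycycline effect beside tamoxifen differed between day 6 and day 1, by limma's test of the difference itself (day 6 minus day 1, log2). In Z00055263-1 the effect moved by 3.68, in Z00018218-1 by 3.31, in Z00074876-1 by 2.51, in Z00076241-1 by 2.49 and in Z00064439-1 by 1.82, each towards or past the uninduced cultures. In Z00007756-1 it moved by -5.19, in Z00035949-1 by -4.80, in Z00023853-1 by -3.85, in Z00024594-1 by -2.97 and in Z00016045-1 by -2.76, each further below them. The induced arrays of Z00024594-1 were not well above background on either day, so its fitted change and its place among the largest are not exact. These members were picked as the largest such changes, so their sizes are those of an extreme. Groups of 2 arrays allow no check for a single array that stands apart.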

How the results depend on the processing

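Of 220 recomputed counts of members, 215 stayed within 1.5 times the value given. The exceptions were the members whose effect fell from day 3 to day 6, 26 with local backgrounds as deposited in place of 47, and those lowered by tamoxifen on day 3, 14 with local backgrounds as deposited and 42 with the series matrix in place of 22. That last count ranged from 11 to 17 with 1 array left out. The causes were not tested. With replicate number as a block, 22 members were lowered by tamoxifen on day 3 and 47 on day 6. The effect rose from day 3 to day 6 for 59, and the block changed no call of a count by over 1.5 times. With crossed numbers, added after seeing the data where deviations of same-numbered arrays ran opposite, the counts were 143 lowered on day 3 without tamoxifen, 142 on day 6 with it and 22 lowered by tamoxifen on day 3, and 79 rose and 51 fell with time. A threshold of 0.40 or 0.50 on the day 1 gap gave 184 or 119 members, and leaving out 1 of the 4 day 1 arrays gave 141 to 155. Of 1074 recomputed tests of named members, 1063 kept their side of the threshold, 9 lost it, 2 gained it and 0 reversed. Of the 9, 5 lie in the tamoxifen effect of Z00052772-1 and 3 in the day 1 effect of Z00024594-1. The last is the day 1 effect of Z00052772-1 beside tamoxifen, with local backgrounds as deposited (adjusted p = 0.0851). The slide block could be fitted only with the doxycycline effect taken as equal on days 3 and 6 (correlation within slides 0.445). It was not run for the other results, since with a mean for each day and drug state no slide is left to vary within a group. Signal over background limits 22 members, which were not well above background on both arrays of at least 1 induced group, and 11 of them were so on neither array of one.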
